A study of Mus musculus with 11 samples.

Results

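Lungs of mice given aspirin alone were compared with lungs of untreated control mice, array against array, over all autosomal genes that 1 symbol names. The comparison used 5 of the 11 arrays of the study, 3 labelled aspirin and 2 labelled untreated control. Its members were the 19106 autosomal genes among 19938 genes, each represented by the row of the deposited table with the highest mean where a symbol had several. The study asked which genes and pathways aspirin, triptolide or both change in lung tissue, and its title places it in work on lung cancer development. All mice were of strain 129S1. The aspirin group received 4 mg of aspirin per kg body weight by gavage on 5 days a week for 2 months. The controls are titled untreated, while the protocol names PBS buffer as the fourth regimen, and whether they were gavaged with this vehicle is not clear from the labels. The 3 triptolide arrays (1 mg per kg, same schedule) and the 3 combination arrays (both agents at these doses) entered only the estimate of the spread and the side-by-side values below. No sex, age, collection time or tumour status is labelled. Whether each replicate is its own animal is not stated, so every p-value measures only the spread between these samples, which may be technical.

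Aspirin acetylates cyclooxygenase and so blocks the first step from arachidonic acid to prostaglandins, prostacyclin and thromboxane. Platelets cannot replace the enzyme, which is why low doses of aspirin mainly lower thromboxane from platelets. The lung makes much prostacyclin in its endothelium and also inactivates circulating prostaglandins. The drug acts on an enzyme, and its direct action need not change the mRNA of that enzyme.

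Lung markers were high on every array. Sftpc, the surfactant protein of alveolar type 2 cells, read 14.06 and 14.03 on the log2 scale in the controls and 13.96, 14.04 and 14.12 with aspirin. Scgb1a1, the secretoglobin of airway club cells, read 13.96 and 13.91 in the controls and 13.98, 13.95 and 14.06 with aspirin. Ager, a marker of alveolar type 1 cells, lay between 13.08 and 13.14 on all 5 arrays. For these 3 markers, chosen after their values were seen, the groups overlapped and differed by less than the spread between arrays. Sftpc does not stand for its whole list: all 16 alveolar type 2 markers described below lay below control, with a median of -0.19. The groups differed, however, in genes of the sex chromosomes. The Y-linked level, taken as the mean log2 value of Eif2s3y, Kdm5d and Uty, was 5.94 and 5.81 on the control arrays and 8.88, 9.09 and 9.0 on the aspirin arrays. Xist, the RNA that coats the inactive X chromosome in female cells, read 11.98 and 12.07 in the controls and 7.0, 6.86 and 6.77 with aspirin. The 2 groups were apart in both measures with no array between them, so a difference between sexes and a difference due to aspirin cannot be told apart in any gene below. The triptolide arrays are the nearest check. Triptolide 1 had a Y-linked level of 6.55, and triptolide 2 and 3 had 9.36 and 9.08, so the difference of the latter from the former is given beside many of the results. Xist on these arrays read 12.32, 9.75 and 6.61, so triptolide 2 lay between the control and aspirin values in Xist while its Y-linked level was high. In whole lung, fewer cells of a type and less RNA per cell cannot be told apart.

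No autosomal gene passed the test. In limma's fit over all 11 arrays, 0 of 19106 genes had a Benjamini-Hochberg adjusted p under 0.05 (0.0% called), and the smallest adjusted p was 1.0. At an unadjusted p under 0.05, 254 genes were higher with aspirin (1.33%) and 294 lower (1.54%), 548 in all (2.87%), where 5% of the genes would be 955. That count rests on the arrays in the fit: it was 542 higher and 780 lower with the control and aspirin arrays alone, and 517 and 658 without combination 1, both sums above 955. The values of the 2 groups did not overlap for 1929 genes higher with aspirin (10.1%) and 3021 lower (15.8%), together 25.9%. Aspirin means lay above the control means for 9249 genes (48.4%). The median difference over all genes was 0 on the log2 scale, where a difference of 1 is a factor of 2, and 95% of genes lay between -0.28 and 0.31. Every difference below is therefore a measured value that did not pass the test. The median standard error of a difference was 0.13. With 3 arrays against 2 there are 10 splits, so an exact permutation test of a single value could not go below a two-sided p of 0.2.

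The spread was uneven between the groups. The median SD over genes was 0.115 among the aspirin arrays and 0.0578 among the controls, and it was the larger in the aspirin group for 74.5% of genes. Aspirin 2 carried most of the large differences. Of the 29 genes more than 1 above control on the log2 scale, aspirin 2 lay farthest from the control mean in 25. Without that array 7 of the 29 stayed more than 1 above control and 11 were within 0.5 of it. Of the 29 genes, 7 were neutrophil markers and 4 platelet markers of the lists described below. Only 5 genes lay more than 1 below control, and aspirin 1 was the farthest in 4 of them.

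Single genes are described first for the 34 with the smallest limma p or the widest gap between the groups, 17 of them higher and 17 lower with aspirin. All 34 were picked among genes whose groups did not overlap, so their lack of overlap is part of the choice and no result. They included a neuropeptide precursor, an ion channel, a peptidase and a lectin of antigen-presenting cells. Asic2, a proton-gated sodium channel, read 7.84 and 7.87 in the controls and 8.62, 8.61 and 8.73 with aspirin. All 3 aspirin arrays lay well above both controls and close to each other. The difference was 0.80 ± 0.13 (SE), and its limma p was the smallest of the genes named. Triptolide 2 and 3 lay 0.41 above triptolide 1 for Asic2, and the combination arrays 0.02 ± 0.13 above the controls. Penk, which encodes the precursor of the enkephalin opioid peptides, read 9.22 and 8.74 in the controls and 10.81, 10.30 and 10.79 with aspirin. It had the largest difference among the genes of smallest p, 1.65 ± 0.40. For Penk the triptolide arrays with the high Y-linked level lay 1.30 above the one with the low level, a difference of similar size, and the combination arrays lay 0.25 ± 0.40 above control. Folh1, a glutamate carboxypeptidase that also trims dietary folates, read 6.59 and 6.39 in the controls and 7.15, 7.32 and 7.50 with aspirin. Its difference was 0.83 ± 0.17, and triptolide 2 and 3 lay 0.54 above triptolide 1.

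Il23r, a subunit of the interleukin 23 receptor of T cells and innate lymphocytes, read 7.57 in both controls and 8.23, 8.31 and 8.2 with aspirin. Its difference of 0.68 ± 0.19 came with a triptolide value of -0.05, and the combination arrays lay 0.42 ± 0.19 above control. In 15 of the 17 higher genes the mean of triptolide 2 and 3 lay above triptolide 1, as in 51.0% of all autosomal genes. The exceptions were Il23r and, at -0.25, T2. Further genes of small p were the activating lymphocyte and platelet receptor Cd226 (0.77 ± 0.17), the G protein signalling regulator Rgs9 (0.49 ± 0.11) and the organic cation exporter Slc47a1 (0.56 ± 0.13). Pla1a, a phospholipase that acts on phosphatidylserine, differed by 0.65 ± 0.16, and Leng8 by 0.74 ± 0.17. That all aspirin arrays lay above both controls in these 5 follows from how they were chosen.

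Mgl2, a galactose-binding lectin of macrophages and dendritic cells, read 9.66 and 9.96 in the controls and 8.90, 8.94 and 8.89 with aspirin. The aspirin arrays sat within a very narrow range below both controls. The difference was -0.90 ± 0.17, and triptolide 2 and 3 differed from triptolide 1 by -0.16. Its neighbour in the same lectin family, Clec10a, chosen here after its values were seen, read 7.63 and 7.71 in the controls and 7.36, 7.48 and 7.34 with aspirin. Clec10a differed by -0.27 ± 0.12 and also without overlap, as 15.8% of all genes did downwards. Igf1, insulin-like growth factor, which lung fibroblasts and macrophages secrete, read 9.26 and 9.37 in the controls and 8.68, 8.53 and 8.58 with aspirin. Its difference of -0.72 ± 0.17 came with a triptolide value of -0.02, and the combination arrays lay at -0.35 ± 0.17 from control. Cpa3, a carboxypeptidase stored in mast cell granules, read 7.90 and 7.26 in the controls and 6.70, 6.62 and 6.64 with aspirin (-0.93 ± 0.26). The controls differed from each other by more than the aspirin arrays did. The other mast cell proteases stayed near control, with Cma1 at -0.15 ± 0.13, Tpsb2 at -0.15 ± 0.13 and Mcpt4 at 0.08 ± 0.12, all 3 chosen after their values were seen.

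Further genes of the 34 were lower with aspirin. Gja5, the arterial gap junction protein connexin40, read 10.60 and 10.69 in the controls and 10.14, 9.89 and 9.79 with aspirin (-0.71 ± 0.22). Mmp2, a secreted gelatinase of matrix, read 11.16 and 11.18 in the controls and 10.51, 10.61 and 10.60 with aspirin (-0.60 ± 0.24). The aspirin arrays were close together for Mmp2 and more spread for Gja5. Rasgrp3, an exchange factor for Ras in endothelial and B cells, differed by -0.60 ± 0.16, and Edil3, an integrin ligand of the matrix, by -0.59 ± 0.21. On the combination arrays, which are set against the same controls, Gja5 lay at -1.05 ± 0.22, Rasgrp3 at -1.07 ± 0.16, Edil3 at -1.41 ± 0.21 and Mmp2 at -0.60 ± 0.24. Also lower were the lactate transporter Slc5a12 (-0.64 ± 0.13), the interferon-inducible Ifi203 (-0.52 ± 0.10), the large cadherin Dchs1 (-0.44 ± 0.10), the decoy receptor Tnfrsf22 (-0.42 ± 0.10) and the glycogen primer Gyg (-0.62 ± 0.23). For 7 of the 17 lower genes triptolide 2 and 3 lay below triptolide 1. With the Y-linked level in the fit, which mainly the triptolide arrays separate from the group, the difference shrank in 16 of the 17 higher genes and in 7 of the 17 lower ones, and it changed sign in 0. The lowest adjusted p among the 34 genes was then 0.763. Shrinkage and kept signs follow in part from picking these genes by small p or wide gap in the same arrays. The share of all autosomal genes that shrank or changed sign was not counted, so these counts do not tell sex from aspirin.

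**Figure D1:**
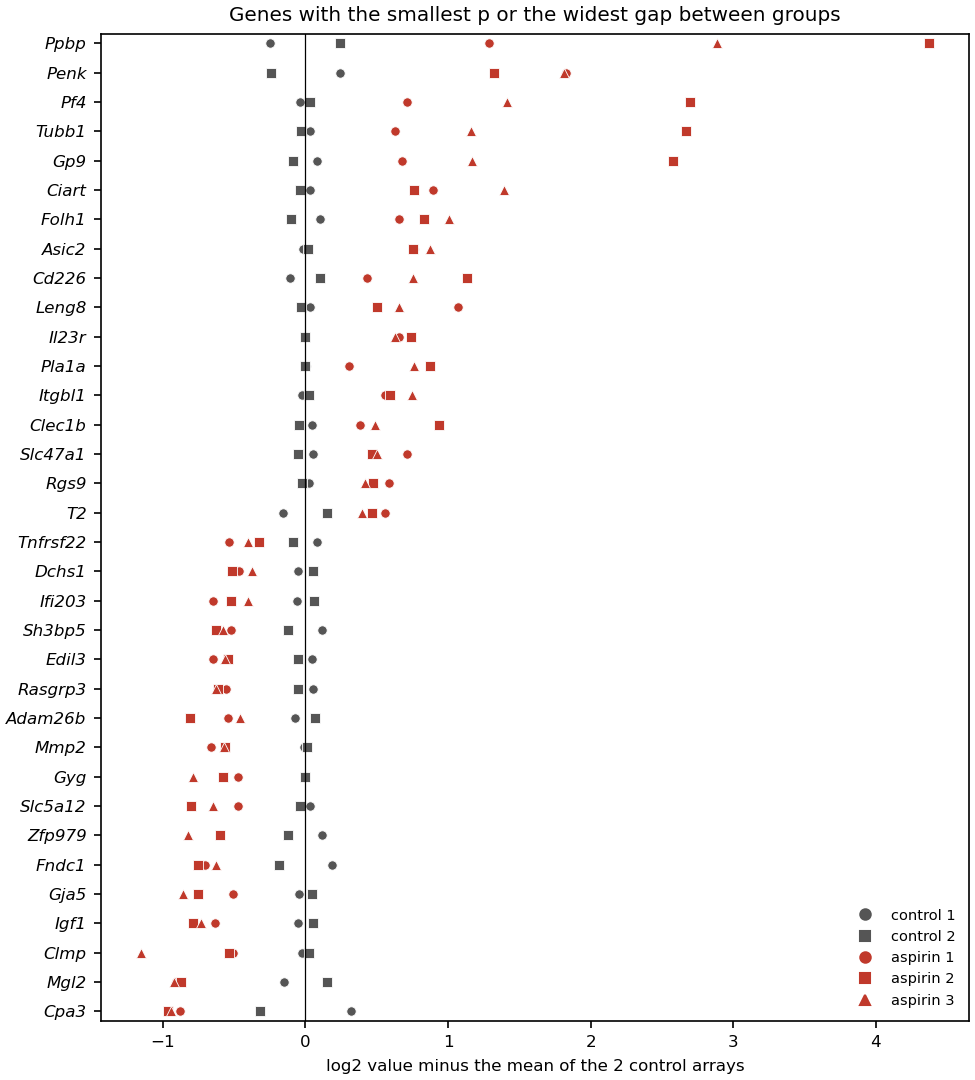
Each row is 1 of the 34 genes with the smallest limma p or the widest gap between groups, and the horizontal axis gives the log2 value minus the mean of the 2 control arrays. Grey marks are control arrays and red marks aspirin arrays, with a shape for each replicate. Ppbp, Pf4, Tubb1 and Gp9 were spread over the aspirin arrays with aspirin 2 farthest out, whereas Mgl2, Cpa3, Il23r and Asic2 were nearly level across them.

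The genes of prostanoid synthesis showed small differences in both directions. The list did not hold Ptgs1, the other cyclooxygenase gene, which is not reported here. Of 18 measured genes of synthesis and transport, 8 lay above control and 10 below, 1 did not overlap upwards and 4 downwards (10.1% and 15.8% of all genes), and the median difference was -0.04. Ptgs2, the inducible cyclooxygenase and a target of aspirin, read 9.93 and 10.43 in the controls and 9.51, 10.68 and 9.79 with aspirin. Its groups overlapped, with aspirin 2 the highest array and aspirin 1 the lowest, and the difference was -0.18 ± 0.33. Ptges, the inducible prostaglandin E synthase that works with Ptgs2, read 10.02 and 10.18 in the controls and 9.72, 9.71 and 9.72 with aspirin. The aspirin arrays were level and below both controls (-0.38 ± 0.17). The other prostaglandin E synthases lay below control too, Ptges2 at -0.14 ± 0.10 and Ptges3, also a co-chaperone, at -0.20 ± 0.09, and neither overlapped. Ptgis, the prostacyclin synthase of endothelium and smooth muscle, read 10.91 and 10.94 in the controls and 11.13, 11.19 and 11.30 with aspirin. It was the only gene of the 18 with all aspirin arrays above both controls (0.28 ± 0.19). The thromboxane synthase Tbxas1 differed by -0.03 ± 0.22, the prostaglandin D synthase Hpgds by -0.19 ± 0.16, the prostaglandin-degrading dehydrogenase Hpgd by 0.09 ± 0.17 and the prostaglandin uptake transporter Slco2a1 by 0.16 ± 0.14. Of 9 prostanoid receptors, 3 lay above control and 6 below, with a median of -0.04. The receptor differences were small, from -0.16 ± 0.11 for the thromboxane receptor Tbxa2r to 0.11 ± 0.12 for the prostaglandin D receptor Ptgdr. Among the prostaglandin E receptors Ptger3 alone did not overlap (-0.15 ± 0.09).

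The lipoxygenases make leukotrienes and hydroxy acids from the same arachidonic acid. Of 14 measured genes 8 lay above and 6 below control, with a median of 0.03. Alox12, the platelet 12-lipoxygenase, read 8.01 and 7.99 in the controls and 8.32, 10.35 and 8.86 with aspirin. All 3 aspirin arrays lay above both controls, and aspirin 2 far above the rest. The difference of 1.18 ± 0.51 was 0.59 without aspirin 2. The order of the arrays was that of the platelet markers below, whose part in it was not tested. Alox5, the first enzyme of leukotriene synthesis, read 8.58 and 8.75 in the controls and 8.71, 9.34 and 8.77 with aspirin (0.28 ± 0.20). Only aspirin 2, the array with high neutrophil markers, stood out, and without it the difference was 0.08. Lta4h, which makes leukotriene B4, differed by -0.28 ± 0.12 with no overlap.

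Genes that hydrolyse aspirin or conjugate salicylate differed little as a group. Of 20 measured, 12 lay above and 8 below control, with a median of 0.03. Ces1g, a carboxylesterase, read 8.65 and 9.10 in the controls and 9.46, 9.54 and 9.55 with aspirin (0.64 ± 0.33). Pon1, an esterase, read 10.89 and 10.99 in the controls and 11.36, 11.60 and 11.43 with aspirin (0.52 ± 0.34). Neither overlapped, and both followed the Y-linked level on the triptolide arrays, with values of 0.85 for Ces1g and 0.38 for Pon1. With the Y-linked level in the fit Ces1g turned to -0.41 and Pon1 went to 0.06. Pafah1b2, a catalytic subunit of an acetylhydrolase that can also cleave aspirin, differed by -0.29 ± 0.10, and the carboxylesterase Ces2e by -0.30 ± 0.12.

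NF-kB, the inflammatory transcription factor whose activation salicylate inhibits at high doses, showed no common direction. Of 16 subunits and feedback inhibitors 6 lay above and 10 below control, and the median was -0.05. Of the 16, 0 had an unadjusted limma p under 0.05 in either direction. Among all autosomal genes the share was 2.87%, so a count of 0 among 16 says little. Rela, the main activating subunit, read 10.63 and 10.78 in the controls and 10.57, 10.60 and 10.67 with aspirin (-0.09 ± 0.12). Nfkbia, its inhibitor and a rapid target, differed by 0.08 ± 0.17. Cytokines, chemokines and adhesion molecules were split evenly, 17 above and 17 below control, with a median of -0.01. Ccl17, a chemokine of dendritic cells, read 9.26 and 9.82 in the controls and 8.66, 9.04 and 8.47 with aspirin (-0.82 ± 0.39). For Ccl17 triptolide 2 and 3 differed from triptolide 1 by -1.04, and with the Y-linked level in the fit the difference turned to 0.41. Il1a, an alarm cytokine, differed by -0.45 ± 0.25, and Il1b, its secreted relative, by 0.53 ± 0.34, of which 0.18 was left without aspirin 2. The antioxidant enzyme Hmox1 lay at -0.18 ± 0.21, the growth regulator Myc at -0.20 ± 0.31 and the proliferation marker Mki67 at 0.02 ± 0.96.

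Platelet markers lay higher on every aspirin array than on either control. All 13 measured markers of platelets and megakaryocytes had means above control, 12 of the 13 did not overlap (10.1% of all autosomal genes did so upwards), and 9 had an unadjusted p under 0.05 (1.33%). The median difference was 0.86. Ppbp, the precursor of platelet chemokines stored in granules, read 8.58 and 9.07 in the controls and 10.11, 13.20 and 11.71 with aspirin. Its difference of 2.85 ± 1.09 was the largest of all autosomal genes, and it was 2.08 without aspirin 2. Pf4, platelet factor 4, read 8.47 and 8.54 in the controls and 9.22, 11.20 and 9.92 with aspirin (1.61 ± 0.48). In both genes the order was aspirin 2, aspirin 3, aspirin 1 and then the controls. The same order held for Tubb1, the platelet tubulin, at 8.78 and 8.72 against 9.38, 11.42 and 9.91 (1.49 ± 0.68), and for Gp9, part of the von Willebrand factor receptor, at 8.36 and 8.19 against 8.95, 10.85 and 9.44 (1.47 ± 0.50).

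Other platelet differences were smaller, and so were their standard errors. Clec1b, the platelet receptor for podoplanin, read 7.08 and 6.99 in the controls and 7.42, 7.97 and 7.52 with aspirin (0.60 ± 0.15). Nrgn, a calmodulin-binding protein of platelets and neurons, read 9.43 and 9.34 in the controls and 9.86, 10.39 and 9.94 with aspirin (0.68 ± 0.21). Treml1, a granule receptor, differed by 0.49 ± 0.18, and Itga2b, the fibrinogen receptor chain, by 0.91 ± 0.34. Each of these 4 lay above both controls on all 3 aspirin arrays. The list level, the mean of the members' log2 values relative to their mean over the 11 arrays, was -0.39 on both controls and 0.08, 1.26 and 0.41 on the aspirin arrays. Without aspirin 2 the median difference was 0.43 and 13 of 13 stayed above control. The triptolide arrays had levels of -0.39, -0.29 and -0.07 and the combination arrays 0.69, -0.54 and -0.36, so the level on the combination arrays spanned both sides of the controls. Combination 1 stands apart from all other arrays in blood and dividing cell genes, with an erythroid level of 3.73. On the aspirin arrays erythroid genes moved with the platelet list. Erythroid genes lay above control in 9 of 10 cases, with levels of -0.45 and -0.52 in the controls and -0.31, 0.10 and -0.16 with aspirin. The part of the blood content in the platelet values was not tested. With the Y-linked level in the fit the mean platelet difference went from 0.97 to 0.61.

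Most of the neutrophil difference came from 1 array. Of 16 neutrophil markers 15 lay above control, with a median of 0.85, and 3 did not overlap (10.1% of all genes did so upwards). S100a8, 1 chain of the calprotectin dimer of neutrophil cytoplasm, read 7.92 and 7.88 in the controls and 8.12, 12.10 and 7.72 with aspirin. S100a9, its partner, read 8.58 and 8.54 in the controls and 9.18, 12.29 and 8.86 with aspirin. The neutrophil collagenase Mmp8, chosen after its values were seen, read 6.90 and 7.13 in the controls and 6.97, 11.62 and 6.90 with aspirin. In all 3 genes aspirin 2 stood apart. The other aspirin arrays lay near control for S100a8 and Mmp8. For S100a9 they lay above both controls, and without aspirin 2 the difference was 0.46. The list level was -0.50 and -0.35 in the controls and -0.38, 1.95 and -0.53 with aspirin. Without aspirin 2 the median difference was -0.03, with 7 markers above and 9 below control. Csf3r, the granulocyte growth factor receptor, was the marker with the smallest p (1.03 ± 0.47), and 0.45 of it was left without that array.

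**Figure D2:**
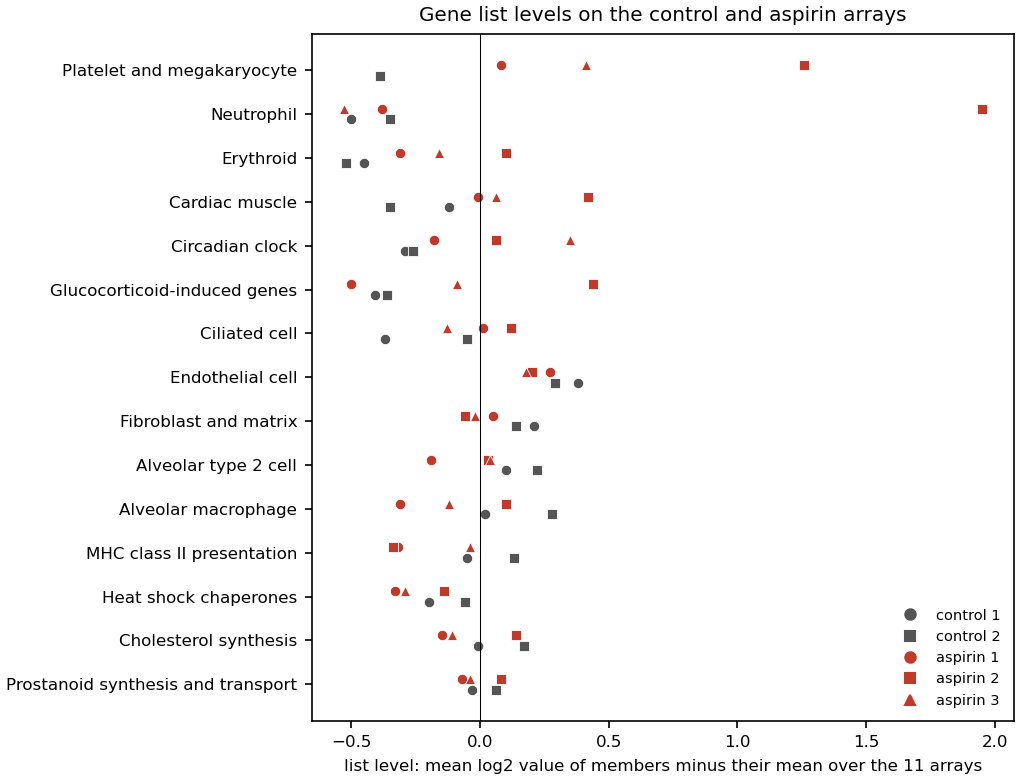
Each row is a gene list, and the horizontal axis is its level, the mean log2 value of its members minus their mean over the 11 arrays. Grey marks are the 2 control arrays and red marks the 3 aspirin arrays. Platelet levels of all aspirin arrays lay above both controls, the neutrophil level was high on aspirin 2 alone, and clock levels ran from -0.18 to 0.35 on the aspirin arrays against -0.29 and -0.26 in the controls.

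The circadian clock was the pathway list with the largest median difference. In the clock, the activators CLOCK and ARNTL bind E-box sequences and switch on Per, Cry and Ciart, whose proteins repress them in turn, while the output factors Dbp, Tef and Hlf bind D-box sequences in further genes. Levels of these mRNAs depend on the time of day. Of 17 measured clock genes 13 lay above control, 8 did not overlap upwards and 2 downwards (10.1% and 15.8% of all genes), and 6 were higher at an unadjusted p under 0.05 (1.33%). The median difference was 0.39, and 0.34 without aspirin 2. The time at which each lung was collected is not labelled, and its part in these differences was not tested.

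Promoter sequences are shown for 4 of the clock genes that lay higher, chosen because they hold E-box or D-box letters. Hlf and Dbp also lay higher, and their promoter stretches in the same table hold neither. The sequences come from RefSeq on GRCm38.p6 and run 5′ to 3′ on the gene's strand, from 250 bases before a start site. Bases inside the annotated span of the same gene were left out, so Ciart and Per3 stop short of that site. Capitals mark the E-box letters CACGTG and the D-box letters TTANNTAA, both of which read the same on the other strand. Ciart is at chr3:95882258-95882478 on the minus strand, Per3 at chr4:151044708-151044915 on the minus strand, Tef at chr15:81802423-81802672 on the plus strand and Cry1 at chr10:85185055-85185304 on the minus strand.
Ciart: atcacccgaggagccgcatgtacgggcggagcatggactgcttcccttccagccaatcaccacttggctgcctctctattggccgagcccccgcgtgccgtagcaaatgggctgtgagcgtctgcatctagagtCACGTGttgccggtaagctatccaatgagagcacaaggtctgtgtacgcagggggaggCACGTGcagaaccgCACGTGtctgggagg
Per3: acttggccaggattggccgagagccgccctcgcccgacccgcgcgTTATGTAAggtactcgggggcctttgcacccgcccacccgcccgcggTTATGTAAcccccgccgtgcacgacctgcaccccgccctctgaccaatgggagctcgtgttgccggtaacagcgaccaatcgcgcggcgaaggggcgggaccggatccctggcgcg
Tef: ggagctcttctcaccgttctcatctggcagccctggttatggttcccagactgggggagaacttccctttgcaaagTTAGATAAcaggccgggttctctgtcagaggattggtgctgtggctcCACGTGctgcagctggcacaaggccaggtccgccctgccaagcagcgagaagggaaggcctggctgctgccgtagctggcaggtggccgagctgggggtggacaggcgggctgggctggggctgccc
Cry1: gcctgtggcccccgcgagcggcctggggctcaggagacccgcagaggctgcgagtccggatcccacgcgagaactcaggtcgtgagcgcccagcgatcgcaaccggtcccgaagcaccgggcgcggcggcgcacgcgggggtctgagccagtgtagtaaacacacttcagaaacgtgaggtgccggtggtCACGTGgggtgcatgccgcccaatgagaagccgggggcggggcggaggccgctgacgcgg

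Ciart held 3 CACGTG matches in the 221 bases shown, Per3 held 2 TTANNTAA matches in 208, Tef held 1 of each in 250 and Cry1 held 1 CACGTG match in 250. Of the 17 measured clock genes 15 were matched to a promoter in the table. These 15 genes have 20 promoters there. In the 250 bases before the start, 6 of the 20 held CACGTG, 2 held TTANNTAA and 4 held AGGTCA, the letters bound by Nr1d1 and Rora, searched on both strands. Of 32851 mouse promoters, 6.02% held CACGTG, 5.43% TTANNTAA and 14.0% the Nr1d1 and Rora letters, which can overlap the E-box by their last 2 bases. A match describes the letters and says nothing of binding in these lungs.

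Ciart, a repressor of CLOCK and ARNTL, read 8.27 and 8.2 in the controls and 9.13, 9.0 and 9.63 with aspirin (1.02 ± 0.28). Per2, a core repressor, read 9.08 and 9.11 in the controls and 9.58, 10.12 and 10.63 with aspirin (1.02 ± 0.28). Per3, its relative, read 8.74 and 8.68 in the controls and 9.27, 9.40 and 10.36 with aspirin (0.96 ± 0.32). In all 3 genes aspirin 3 was the highest array, and no aspirin array reached down to the controls. Tef, an output factor, read 9.66 and 9.58 in the controls and 10.02, 10.24 and 10.73 with aspirin (0.71 ± 0.22). Cry1, a repressor that peaks late, read 8.65 and 8.81 in the controls and 8.92, 9.05 and 9.13 with aspirin (0.30 ± 0.10). Hlf, another output factor, read 8.48 and 8.41 in the controls and 8.63, 8.90 and 9.65 with aspirin (0.61 ± 0.28). In these 3 too, aspirin 3 was the highest array and aspirin 1 the lowest of its group.

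The activators lay on the other side, and they are named here after their values were seen. Arntl read 9.58 and 9.49 in the controls and 9.47, 9.04 and 8.01 with aspirin (-0.70 ± 0.34). Clock, its partner, read 10.59 and 10.60 in the controls and 10.41, 10.39 and 9.84 with aspirin (-0.38 ± 0.22). Both had all aspirin arrays below both controls, and aspirin 3 lowest. Dbp, the output factor with the widest daily swing, named after its values were seen, read 8.94 and 8.80 in the controls and 9.01, 9.25 and 10.77 with aspirin (0.81 ± 0.45). Nr1d1, which represses Arntl, overlapped at 12.06 and 11.84 against 11.59, 11.59 and 12.40. The list level was -0.29 and -0.26 in the controls and -0.18, 0.06 and 0.35 with aspirin. It was -0.04, 0.30 and 0.05 on the triptolide arrays and -0.32, 0.13 and 0.20 on the combination arrays. Ciart, Per2 and Per3 lay 0.62, 0.34 and 0.50 higher on triptolide 2 and 3 than on triptolide 1, and on the combination arrays they lay 0.87 ± 0.28, 0.82 ± 0.28 and 0.93 ± 0.32 above the shared controls. The list's mean difference of 0.35 was 0.21 without aspirin 3 and 0.09 with the Y-linked level in the fit.

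**Figure D3:**
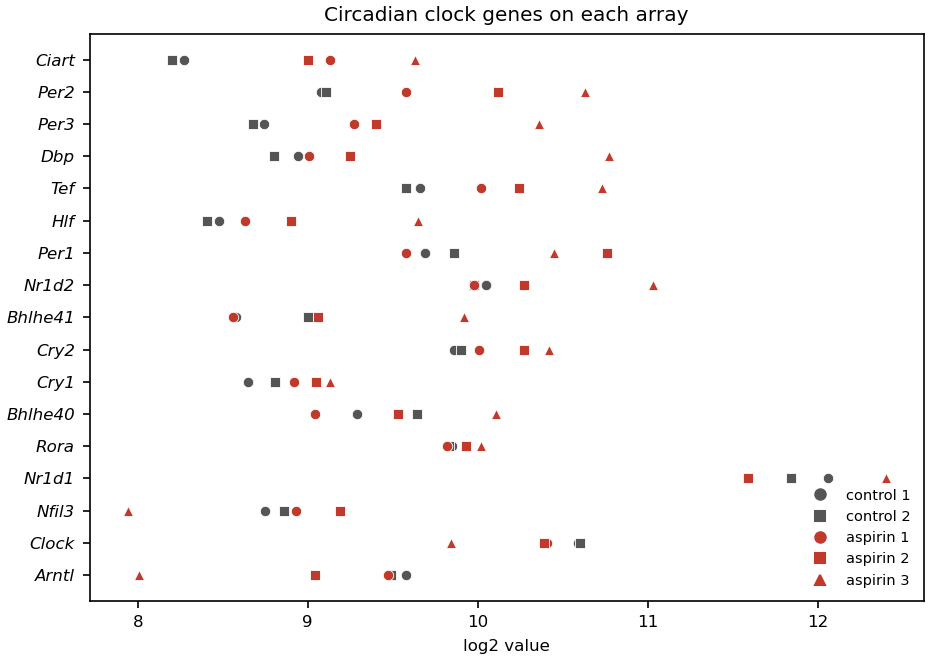
Log2 values of the 17 measured clock genes on the 2 control arrays (grey) and the 3 aspirin arrays (red), ordered by their difference. Heights are to be compared within a gene only. Per2, Per3, Tef and Ciart had all aspirin arrays above both controls, Arntl and Clock had them below, and aspirin 3 was the most distant array in each of these 6.

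Glucocorticoid-induced genes lay above control in 12 of 13 cases, with a median of 0.31, 3 without overlap (10.1% of all genes) and 2 at an unadjusted p under 0.05 (1.33%). The list level was -0.41 and -0.36 in the controls and -0.50, 0.44 and -0.09 with aspirin, so aspirin 1 lay below both controls. The level difference of 0.34 was 0.09 without aspirin 2. Zbtb16, a transcription factor induced by glucocorticoids, read 9.96 and 9.57 in the controls and 10.27, 11.73 and 10.83 with aspirin (1.17 ± 0.46). Fkbp5, a co-chaperone of the glucocorticoid receptor, read 8.15 and 8.47 in the controls and 8.64, 10.14 and 8.85 with aspirin (0.90 ± 0.43). Aspirin 2 was the highest array in both. Without it 7 of the 13 lay above control and Fkbp5 differed by 0.44. On the triptolide arrays both went against the Y-linked level, with values of -1.08 for Zbtb16 and -1.02 for Fkbp5. The metallothionein Mt2 read 10.78 and 11.13 in the controls and 11.11, 11.78 and 11.98 with aspirin (0.67 ± 0.31).

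Heat shock chaperones lay slightly below control in 16 of 18 cases, with 6 not overlapping (15.8% of all genes), a median of -0.12 and levels of -0.20 and -0.06 in the controls against -0.33, -0.14 and -0.29. Dnaja1, a co-chaperone of the HSP70 family, read 10.87 and 10.90 in the controls and 10.52, 10.68 and 10.69 with aspirin (-0.26 ± 0.11). On the combination arrays Dnaja1 lay on the other side of the shared controls, at 0.25 ± 0.11. Cholesterol synthesis genes lay below control in 13 of 16 cases, with a median of -0.10. The list was lower on aspirin 1 and 3 than on aspirin 2, so that without aspirin 2 all 16 measured genes lay below control and the median was -0.21. Stard4, a sterol carrier, differed by -0.26 ± 0.09. Idi1, an isomerase of the pathway, read 9.92 and 10.06 in the controls and 9.15, 10.03 and 9.51 with aspirin (-0.43 ± 0.19), with aspirin 2 among the controls. Interferon-induced genes were mixed, 12 above and 8 below control with a median of 0.03. Ifit3, an antiviral protein, read 10.36 and 10.42 in the controls and 10.65, 10.78 and 10.90 with aspirin (0.39 ± 0.11). Its relative Ifit2 lay on the other side at -0.26 ± 0.13, and Rsad2, another antiviral protein, read 7.90 and 8.11 in the controls and 7.94, 10.87 and 9.65 with aspirin.

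Antigen presentation genes of MHC class II lay below control in 9 of 9 measured cases, 5 without overlap (15.8% of all genes did so downwards) and 4 at an unadjusted p under 0.05 (1.54%), with a median of -0.30. H2-Ab1, a chain of the I-A molecule, read 12.55 and 12.76 in the controls and 12.18, 12.07 and 12.43 with aspirin (-0.43 ± 0.14). H2-Aa, the other chain, read 12.70 and 12.91 in the controls and 12.32, 12.31 and 12.68 with aspirin (-0.37 ± 0.14). H2-DMa, which helps to load peptides, differed by -0.39 ± 0.15, and the invariant chain Cd74 by -0.31 ± 0.12. Aspirin 3 was the array nearest to the controls in these genes. The list level was -0.05 and 0.13 in the controls and -0.32, -0.34 and -0.04 with aspirin, so on the level of the whole list aspirin 3 lay just above control 1. The mean difference of the list, -0.28, was -0.07 with the Y-linked level in the fit. Mgl2 above is one of the markers of interstitial macrophages, monocytes and dendritic cells, of which 12 of 17 lay below control with a median of -0.06. Of the 17, 3 did not overlap downwards and 2 upwards (15.8% and 10.1% of all genes). The 2 were Cd163 (0.24 ± 0.19) and Clec9a (0.27 ± 0.19).

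Lung structural cells gave small differences, mostly downwards. Alveolar type 2 markers lay below control in 16 of 16 cases, 4 without overlap (15.8% of all genes) and 0 at an unadjusted p under 0.05 (1.54%), with a median of -0.19. Lamp3, a protein of lamellar bodies, read 12.24 and 12.34 in the controls and 11.52, 11.91 and 12.08 with aspirin (-0.45 ± 0.35), and Cxcl15, the lung chemokine, read 13.36 and 13.41 against 13.07, 13.06 and 12.95 (-0.36 ± 0.27). The SD of Cxcl15 was 0.04 among the controls and 0.07 among the aspirin arrays. Combination 1, the lowest of all arrays on the type 2 list at a level of -0.73, also entered these errors and p-values. Fibroblast and matrix markers lay below control in 17 of 19 cases, 8 without overlap (15.8% of all genes), with a median of -0.21. Mfap4, a microfibril protein of elastic fibres, read 11.95 and 12.03 in the controls and 11.35, 11.58 and 11.42 with aspirin (-0.54 ± 0.20). Tcf21, a transcription factor of lung fibroblasts, read 11.53 and 11.38 in the controls and 10.68, 11.21 and 11.04 with aspirin (-0.48 ± 0.22). Both had all aspirin arrays below both controls. Endothelial markers lay below control in 13 of 17 cases with a median of -0.11. Emcn, the endothelial sialomucin endomucin, read 11.69 and 11.46 in the controls and from 10.90 to 11.08 with aspirin (-0.58 ± 0.20), and Plvap, which forms the diaphragms of capillary openings, differed by -0.33 ± 0.12. On the combination arrays Emcn lay at -1.15 ± 0.20 and Plvap at -0.76 ± 0.12 from the shared controls. Alveolar type 1 markers showed no such side, with 10 above and 4 below control and a median of 0.04.

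Markers of ciliated cells lay above control in 14 of 16 cases, 4 without overlap (10.1% of all genes), with a median of 0.21. Cfap43, a protein of motile cilia, read 9.0 and 9.26 in the controls and 9.79, 9.68 and 9.64 with aspirin (0.57 ± 0.26). Control 1 was the lower control on this list, at a level of -0.37 against -0.05 for control 2. Cardiac muscle genes, which whole lung carries in the walls of its large veins, lay above control in 13 of 15 cases, 9 without overlap (10.1% of all genes) and 2 at an unadjusted p under 0.05 (1.33%), with a median of 0.46. Myl7, the atrial myosin light chain, read 11.01 and 10.68 in the controls and 11.32, 11.82 and 11.55 with aspirin (0.72 ± 0.32). Cardiac levels were -0.12 and -0.35 in the controls, -0.01, 0.42 and 0.06 with aspirin and 0.80 on triptolide 3. The part of attached cardiac muscle in these values was not tested. Cell cycle genes lay below control in 16 of 20 cases, with 8 not overlapping (15.8% of all genes) and a median of -0.11, and Top2a, the topoisomerase of dividing cells, chosen after its values were seen, differed by -0.22 ± 0.79. Combination 1, at a cell cycle level of 2.48 where the other 10 arrays lay between -0.43 and -0.04, also entered these errors.

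**Figure D4:**
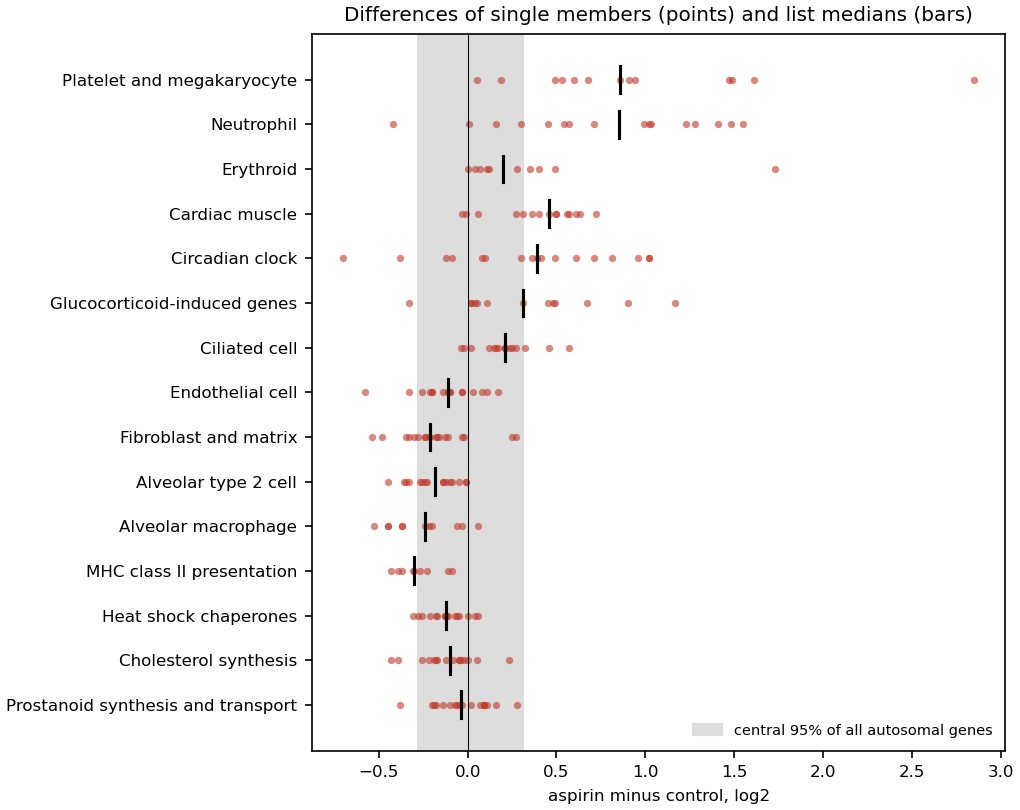
Each point is the difference of 1 gene, aspirin minus control on the log2 scale, in the row of its list, and each bar is the median of the list. The grey band holds the central 95% of all autosomal genes, from -0.28 to 0.31. Most platelet, neutrophil and clock genes lay to the right of the band, while the MHC class II median of -0.30 lay just beyond its left edge and the alveolar type 2 median of -0.19 inside it.

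Lists without a common direction included the antioxidant targets of NRF2, with 11 of 16 above control and a median of 0.06, and the genes of fatty acid oxidation, with 13 of 20 below and a median of -0.04. P450 and flavin monooxygenases lay above control in 9 of 15 cases with a median of 0.15. Of the 15, 6 did not overlap upwards and 2 downwards (10.1% and 15.8% of all genes), and the median was 0.11 without aspirin 2. Cyp2f2, the P450 of club cells, read 13.85 and 13.89 in the controls and 14.02, 14.04 and 14.00 with aspirin (0.15 ± 0.13). T and natural killer cell markers lay below control in 13 of 18 cases with a median of -0.11, and B and plasma cell markers were split 9 to 8. Alveolar macrophage markers lay below control in 10 of 11 cases with a median of -0.24, which was -0.41 without aspirin 2, and adipocyte genes had a median of -0.29, which was -0.48 without it. Adipoq, the fat cell hormone, read 9.75 and 8.31 in the controls and 7.52, 9.43 and 7.73 with aspirin, so that its spread within each group exceeded the difference between them.

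**Figure D5:**
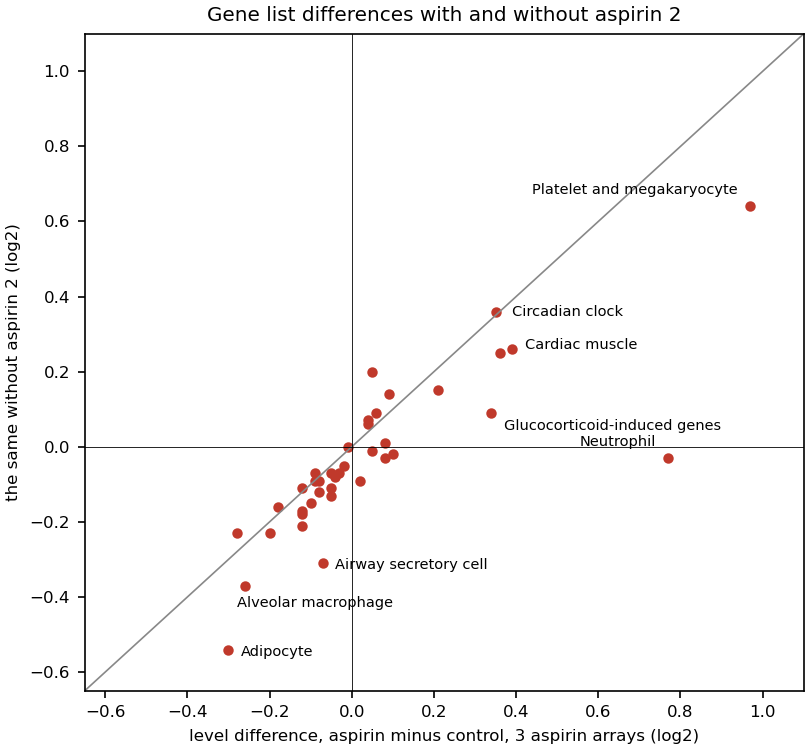
Each point is 1 of the 39 gene lists, with the difference of its level between aspirin and control on the horizontal axis and the same difference without aspirin 2 on the vertical axis, both on the log2 scale. The line marks equal values. The neutrophil list went from 0.77 to -0.03 and the platelet list from 0.97 to 0.64, while the clock list stood at 0.35 and 0.36. Without aspirin 3 instead, the clock difference was 0.21.

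Whether aspirin acted differently in the presence of triptolide was asked with the interaction, the combination minus triptolide difference less the aspirin minus control difference. At an adjusted p under 0.05, limma's interaction called 0 genes. At an unadjusted p under 0.05 it called 645 of the 19106 autosomal genes, where 5% would be 955. Its smallest adjusted p was 0.264, for Asic2, which lay 0.80 ± 0.13 above control with aspirin alone and at -0.48 relative to triptolide when aspirin was added to it. For Penk the value with triptolide was -1.13, beside 1.65 without it, and for Mgl2 it was -0.01, beside -0.90. The Y-linked levels of these groups differed as well, at 6.30, 5.67 and 6.73 on the combination arrays, so sex and the added drug cannot be told apart in the interaction either.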

How the data were processed

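Whole lung RNA was labelled from 100 ng per sample for Affymetrix arrays, per the labels' protocols. The table the authors deposited holds log2 values for 35556 rows on 11 arrays. Per the submitters' processing notes, RMA, a method of background correction and summary, and the Partek software were used. Their versions, their settings and the genome build were not given in the sources used here. The values carry no detection call, and array medians ran from 8.135 to 8.254. The number of arrays limits the precision.

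Groups and replicate numbers came from the sample titles. Rows were named from GEO's platform annotation: 21789 rows had 1 symbol, 1621 had several and were left out, and 12146 were unnamed here. Where several rows shared a symbol (999 genes), the one of highest mean stood for it, leaving 19938 genes, of which 19106 are autosomal in the GRCm38.p6 RefSeq table, 748 lie on the sex chromosomes and 84 could not be placed. limma 3.58.1 in R 4.3.3 (lmFit, eBayes) was fitted over all 11 arrays and 4 groups, with 7 residual and 3.68 prior degrees of freedom and no covariate or low-value filter. Tests were two-sided, with Benjamini-Hochberg adjustment over all 19938 genes. The fit was first tested on simulated data.

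The comparison and the gene lists were chosen with earlier results of these data known. The 39 lists hold 642 symbols, of which 587 were matched to an autosomal gene. Lists are described by counts and medians, with no set test. Named genes are the 10 of smallest p without overlap in each direction, the 10 of widest gap between groups in each direction, up to 6 members of smallest p per list and a fixed set of prostanoid, NF-kB and proliferation genes. Predicted genes, small RNAs, receptor families of smell and taste and antigen receptor segments were left out of the first 2 sets. Others are said to be chosen after their values were seen. Alternatives covered the arrays fitted, array weights, scaling, filters, moderation, the choice of row, the Y-linked level, the replicate number as a block and each array left out.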

Additional observations from a re-analysis of the deposited data

How the results depend on the processing

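The count of 0 autosomal genes at an adjusted p under 0.05 was 1 without triptolide 1, where Asic2 passed, and 484 with limma's array weights (206 higher, 278 lower), which include 32 of the 34 genes named by p or gap. It was 0 under every other alternative run. The weights, estimated gene by gene because the default method did not converge, gave aspirin 3 a weight of 5.993 against 0.443 and 0.62 for aspirin 1 and 2. The counts at an unadjusted p under 0.05, 254 higher and 294 lower, were 542 and 780 with the control and aspirin arrays alone, 1406 and 2435 with array weights, and 435 and 532 with the Y-linked level in the fit. Leaving out 1 array at a time gave 0 to 1 genes at the adjusted threshold, 118 (without control 2) to 517 (without combination 1) higher and 84 to 658 lower at the unadjusted one from the same arrays, and, with fewer arrays to keep apart, 2689 to 4160 and 3556 to 5365 genes without overlap. The mean list differences ran from 0.21 (without aspirin 3) to 0.48 for the clock, 0.64 to 1.23 for platelets, -0.03 (without aspirin 2) to 1.21 for neutrophils and -0.37 to -0.19 for MHC class II. The MHC class II mean, -0.28, was -0.07 with the Y-linked level in the fit. Leaving out aspirin 2 and combination 1 together, chosen after seeing the data, gave 646 and 834. With the replicate number as a block, 0 genes passed and the unadjusted counts were 246 and 451. Same-numbered arrays correlated from -0.142 to 0.333 in their deviations from the group mean, and differently numbered ones from -0.379 to 0.344. Among arrays 1 and 2 of the control, aspirin and triptolide groups, same-numbered pairs ran from 0.105 to 0.333 and differently numbered ones from -0.379 to -0.105. The remaining same-numbered pairs ran from -0.142 to 0.103. Deviations within groups of 2 or 3 arrays depend on each other, so these values cannot show whether the numbers pair the samples. The causes of these shifts were not tested.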
